A study of Mus musculus with 6 samples.

Results

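The genes described here are 34 mouse genes of the glutathione and thioredoxin systems and of the NRF2 response, taken by gene symbol from the 25509 gene rows of the count table. All 34 symbols were matched, each to 1 row. Gsta3, an alpha-class glutathione transferase, held 7 to 15 counts per library (0.28 to 0.53 CPM, counts scaled to a common library size) and did not pass the filter on low counts, so 33 of the 34 were tested. The rule goes by symbol and uses no measured value, though earlier results of these data were known when the list was drawn up.

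Poly-A RNA had been sequenced from peritoneal macrophages of C57BL/6 mice, 3 Tg-ACE libraries, labelled JWT (Tg-ACE), and 3 wild-type (WT) libraries. Tg-ACE mice overexpress angiotensin-converting enzyme (ACE), the peptidase that makes angiotensin II; which promoter and cells drive the transgene was not given in the sources used here. All mice of both genotypes had received intraperitoneal thioglycollate, an irritant that recruits macrophages, and the cells were taken on day 4, purified over Percoll and harvested after 2 h of adherence in culture. Replicates 2 and 3 of each genotype carry the experiment code Exp-156b and replicate 1 of each carries Exp-156; the meaning of the codes is not in the labels, nor is whether replicates came from separate mice, so that p-values measure the spread between these libraries, which may be technical.

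Glutathione and thioredoxin are the main thiol reductants of the cell: they pass electrons from NADPH to peroxidases, to oxidised protein thiols and to conjugating enzymes. NRF2, encoded by Nfe2l2, is a transcription factor that KEAP1 marks for degradation; when reactive compounds modify KEAP1, NRF2 accumulates and raises transcription of genes that carry antioxidant response elements, among them genes for glutathione synthesis, thioredoxin reduction and NADPH supply. In macrophages these systems limit damage by the oxidants that the cells make themselves.

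The libraries held 24294258 to 28120394 expected counts. Ace, the check of the transgene, was at 101, 25.6 and 31.8 CPM in Tg-ACE replicates 1 to 3 and at 16.7, 7.60 and 11.6 CPM in WT replicates 1 to 3. The Tg-ACE libraries were all above the WT libraries (log2 fold change 1.95, SE 0.23, edgeR quasi-likelihood adjusted p = 0.137). The 10 macrophage core symbols together summed to 18540 to 22162 CPM in the Tg-ACE libraries and 18862 to 22476 CPM in the WT libraries. The 4 Exp-156b libraries stood apart from the 2 Exp-156 libraries. Xist, transcribed from the inactive X chromosome, was at 327 to 455 CPM in Exp-156b and 0.41 to 0.53 CPM in Exp-156, while the Y-linked Ddx3y was at most 0.11 CPM in Exp-156b and 48.0 to 51.6 CPM in Exp-156. The codes, the sex-linked transcripts and everything else that differed between these sets of libraries cannot be told apart. The model for all tests below therefore held the experiment code beside genotype, and the code was also compared in its own right.

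Levels differed widely among the 34 genes. Per kilobase of merged exons, Gpx1, the main cytosolic glutathione peroxidase, averaged 853 CPM over the 6 libraries and Txn1, cytosolic thioredoxin, 566 CPM. Prdx1, a cytosolic peroxiredoxin, averaged 312 CPM per kilobase and Gstm1, a mu-class glutathione transferase, 260 CPM per kilobase. At the other end stood Nqo1, a quinone reductase often used as an NRF2 marker, the cystine transporter gene Slc7a11 at 0.90 CPM per kilobase, the malic enzyme gene Me1 at 0.62 and Gsta3 at 0.08. Nfe2l2 itself averaged 66.0 CPM per kilobase and Keap1, encoding its adaptor for degradation, 13.3 CPM per kilobase. Summed over the 34 genes, expression was 6558 to 7399 CPM in the Tg-ACE libraries and 6659 to 6908 CPM in the WT libraries.

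None of the 33 tested genes was higher and none was lower in Tg-ACE than in WT macrophages at an adjusted p of 0.05 (edgeR quasi-likelihood test, Benjamini-Hochberg over 12827 genes). The background was as sparse: 0 of the 12827 genes (0%) were higher and 2 (0.0156%) were lower in Tg-ACE. The genotype log2 fold changes of the 33 genes lay between -0.36 and 0.37, 21 above 0 and 12 below, with a median of 0.04 beside -0.01 over all tested genes. Only 1 of the 33, Akr1b8, had an unadjusted p under 0.05, against 6.48% of all tested genes. The standard errors of these differences ran from 0.06 to 0.28 on the log2 scale, and 26 of the 33 were under 0.1. In a bulk sample a lower level in each cell and fewer cells of a type cannot be told apart.

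**Figure D1:**
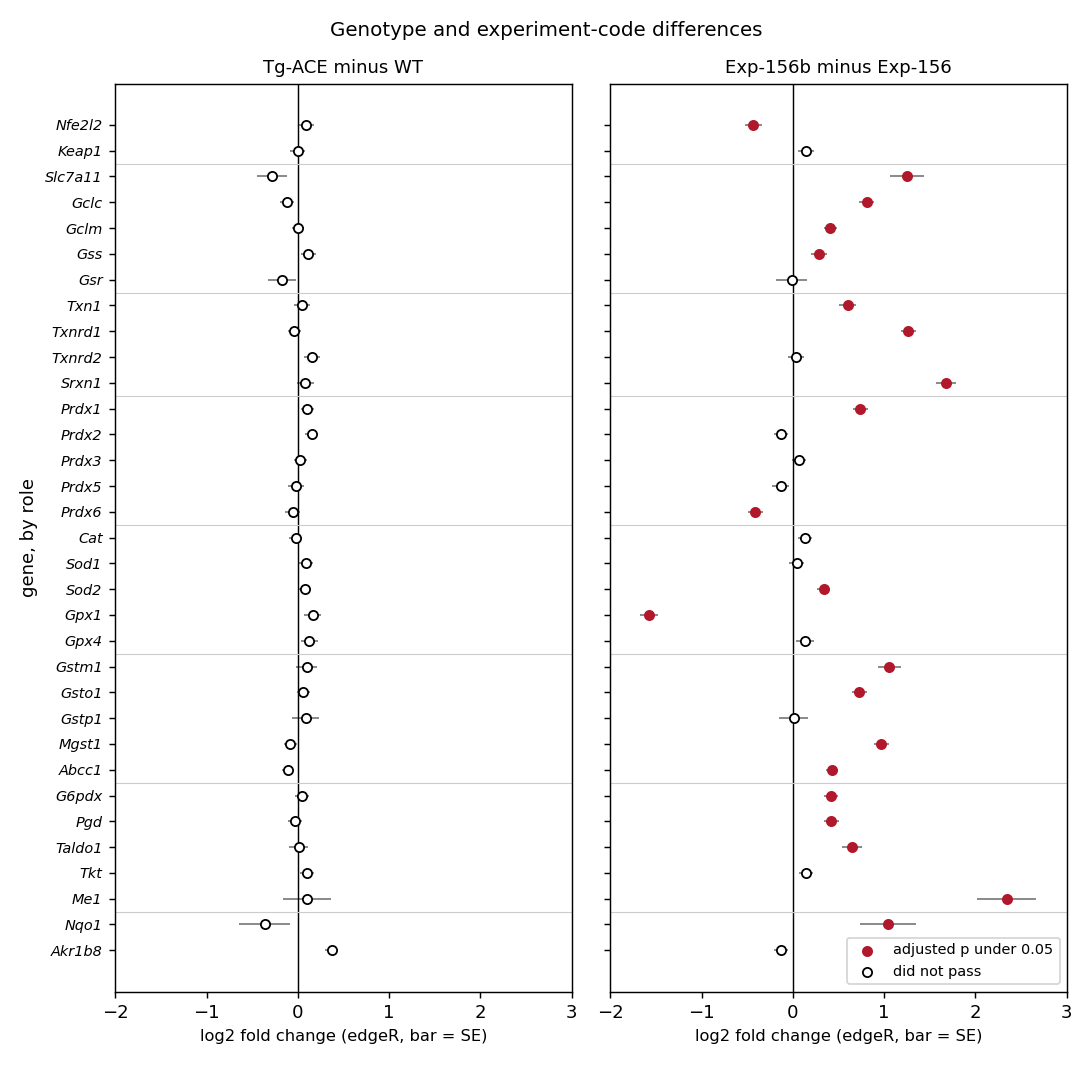
Log2 fold changes of the 33 tested genes (x axis; bars are standard errors) by role from top to bottom, for Tg-ACE minus WT on the left and Exp-156b minus Exp-156 on the right, from 1 edgeR fit of 6 libraries. Filled points passed an adjusted p of 0.05; there are none on the left, and on the right 18 lie above 0 and 3 below.

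Akr1b8, an aldo-keto reductase that reduces reactive aldehydes, stood at 51.5, 49.5 and 43.5 CPM in Tg-ACE replicates 1 to 3 and at 39.0, 36.6 and 35.9 CPM in WT replicates 1 to 3. The Tg-ACE libraries were all above the WT libraries, and Akr1b8 was the only 1 of the 33 genes whose genotypes did not overlap in that direction, as 2.38% of all tested genes did; in the other direction the libraries of none of the 33 were apart, as those of 2.53% of all tested genes were. It averaged 48.2 ± 4.14 CPM in Tg-ACE and 37.2 ± 1.65 CPM in WT (SD, n = 3 each). The log2 fold change was 0.37 (SE 0.07), 0.36 within Exp-156b and 0.40 within Exp-156. Its unadjusted edgeR p of 8.9e-04 gave an adjusted p of 0.469 over all genes. DESeq2 put the same difference at 0.38 with an adjusted p of 0.0408, and no other alternative gave an adjusted p under 0.05 (0.0408 to 1). Akr1b8 also has non-whole expected counts in all 6 libraries, as arise where reads are divided between similar transcripts.

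Among the regulators, Nfe2l2 had a genotype log2 fold change of 0.08 (SE 0.09) and Keap1 of 0.00 (SE 0.08). Gclc and Gclm encode the catalytic and modifier subunits of glutamate-cysteine ligase, which sets the pace of glutathione synthesis. Their genotype differences were -0.12 and -0.00 on the log2 scale. Slc7a11 brings in the cystine that the ligase needs, and its difference was -0.28 (SE 0.17) with overlapping genotypes. Nqo1 reached 0.63, 1.79 and 1.77 CPM in Tg-ACE replicates 1 to 3 and 1.23, 1.67 and 2.27 CPM in WT replicates 1 to 3. Its log2 fold change of -0.36 (SE 0.28) had the largest error of the 33, and the genotypes overlapped.

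The thioredoxin and peroxide-reducing enzymes had similarly small genotype differences. Txnrd1, the cytosolic thioredoxin reductase, differed by -0.04 (log2), and Srxn1, the sulfiredoxin that repairs over-oxidised peroxiredoxins, by 0.08. Gpx1 had a log2 fold change of 0.16 (SE 0.09), with an adjusted edgeR p of 0.793 and overlapping genotypes. Prdx2, a cytosolic peroxiredoxin, and Txnrd2, the mitochondrial thioredoxin reductase, each had a log2 difference of 0.15, and neither passed (edgeR adjusted p = 0.790 and 0.791).

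Most of the 33 genes differed between the experiment codes. In Exp-156b, 18 were higher and 3 were lower than in Exp-156 (edgeR, adjusted p under 0.05), and 12 did not pass. The background was 20.0% of all tested genes higher and 23.0% lower. The median log2 fold change of the 33 genes was 0.34, beside -0.01 over all tested genes. Over all 33 genes, 18 had every Exp-156b library above both Exp-156 libraries, beside 28.9% of all tested genes. Every Exp-156b library lay below both for 3 of the 33, beside 30.9% of all tested genes. These were the same genes that passed, so the counts are not separate results. By role, the genes that rose were 4 of 5 for glutathione supply, 3 of 4 for thioredoxin reduction, 4 of 5 tested for conjugation and export and 4 of 5 for NADPH supply. Among the peroxiredoxins 1 of 5 rose and 1 fell, among catalase, the superoxide dismutases and the glutathione peroxidases 1 of 5 rose and 1 fell, and 1 of 2 quinone and carbonyl reductases rose. Of the 2 regulators none rose and 1 fell.

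**Figure D2:**
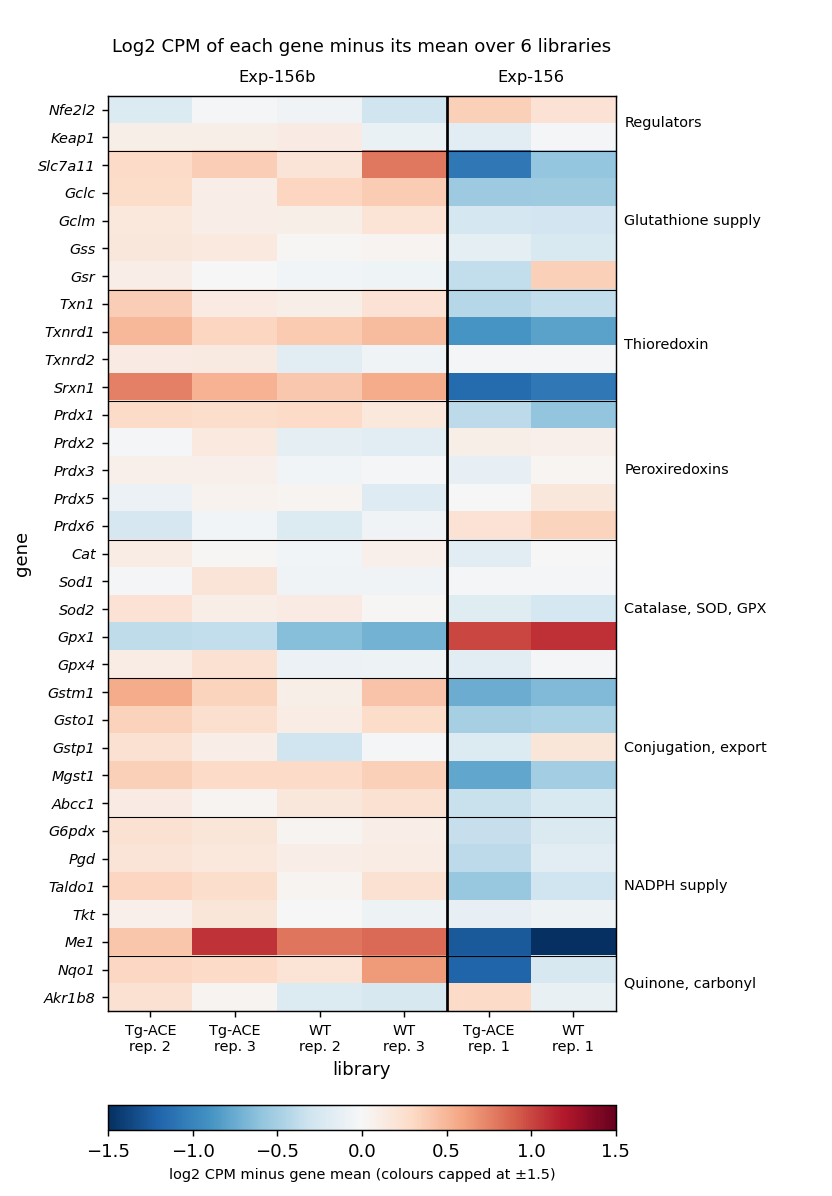
Log2 CPM of each of the 33 tested genes minus its own mean over the 6 libraries, with libraries in columns, genes in rows by role and colours capped at 1.5 in either direction. The 4 Exp-156b libraries stand left of the line and the 2 Exp-156 libraries right of it; Srxn1, Txnrd1 and Me1 are high on the left, and Gpx1, Nfe2l2 and Prdx6 are high on the right.

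The largest rise in the thioredoxin group was that of Srxn1. Its level was 256 and 218 CPM in the Exp-156b Tg-ACE libraries and 200.4 and 224 CPM in the Exp-156b WT libraries, against 68.1 CPM in the Exp-156 Tg-ACE library and 72.0 CPM in the Exp-156 WT library. The Exp-156b libraries were all far above the Exp-156 libraries in both genotypes. The mean was 224 ± 23.0 CPM in Exp-156b (SD, n = 4) and 70.0 ± 2.75 CPM in Exp-156 (SD, n = 2), 3.21-fold higher, with a log2 fold change of 1.68 (SE 0.11, edgeR adjusted p = 3.8e-05). Srxn1 lies on chromosome 2 from 152105516 to 152111376 on the plus strand (GRCm38).

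Txnrd1, on chromosome 10, reached 304 and 268 CPM in the Exp-156b Tg-ACE libraries and 283 and 298 CPM in the Exp-156b WT libraries. The Exp-156 libraries held 117 CPM in Tg-ACE and 123 CPM in WT, so the codes were separated by more than the whole range within either. Txnrd1 averaged 288 ± 16.1 CPM in Exp-156b and 120.0 ± 4.59 CPM in Exp-156, a ratio of 2.40 (log2 fold change 1.26, SE 0.08, edgeR adjusted p = 4.0e-05). Its substrate Txn1 averaged 671 ± 58.7 CPM in Exp-156b and 443 ± 13.6 CPM in Exp-156, 1.52-fold higher (edgeR adjusted p = 0.00218). The mitochondrial reductase Txnrd2 did not pass: it lay between 17.9 and 21.9 CPM in Exp-156b and at 19.5 and 19.8 CPM in Exp-156 (log2 fold change 0.04).

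NRF2 binds antioxidant response elements, whose core can be written TGACNNNGC. Among the 34 genes, 30 had a RefSeq promoter window (GRCm38.p6, 250 bases before to 50 after the start site), 39 windows in all. The core was found on either strand in 11 of the 39 windows (28.2%), beside 12.4% of all 32851 promoter windows of the same length. By gene, 11 of the 30 held it (36.7%), beside 14% of all genes with a window. The list was drawn in part from the NRF2 response, so this share is not independent of that choice. Of the 16 genes with a window that rose in Exp-156b, 8 held the core, as did 3 of the 14 others. That split was not tested. The related spelling TGAGNNNGC, added after the values had been seen, was in 5 of the 39 windows (12.8%), beside 17.6% of all windows. Either spelling was in 14 of the 39 windows (35.9%), beside 27.8% of all windows. The 4 promoters shown are those of the genes with a core match that rose with the smallest p: Srxn1 (chr2:152105274-152105523), Txnrd1 (chr10:82858956-82859205, 1 of its 3 windows), Mgst1 (chr6:138140277-138140526) and Prdx1 (chr4:116685349-116685598), each the 250 bases before the start site on the plus strand, with matches to either spelling on either strand in capitals.
Srxn1: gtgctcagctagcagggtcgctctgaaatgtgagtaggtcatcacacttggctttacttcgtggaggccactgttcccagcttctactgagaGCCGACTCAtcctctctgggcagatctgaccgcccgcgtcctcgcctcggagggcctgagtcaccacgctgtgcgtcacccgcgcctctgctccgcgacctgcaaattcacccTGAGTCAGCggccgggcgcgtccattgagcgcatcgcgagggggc
Txnrd1: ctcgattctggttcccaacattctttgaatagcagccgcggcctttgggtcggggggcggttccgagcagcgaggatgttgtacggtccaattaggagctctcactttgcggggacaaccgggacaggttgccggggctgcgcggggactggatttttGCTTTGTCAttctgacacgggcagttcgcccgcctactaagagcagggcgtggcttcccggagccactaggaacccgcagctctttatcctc
Mgst1: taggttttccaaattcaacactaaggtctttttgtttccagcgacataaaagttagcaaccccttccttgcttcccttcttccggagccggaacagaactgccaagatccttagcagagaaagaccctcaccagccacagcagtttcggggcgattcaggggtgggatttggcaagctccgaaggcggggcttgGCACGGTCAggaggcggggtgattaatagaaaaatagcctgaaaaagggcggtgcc
Prdx1: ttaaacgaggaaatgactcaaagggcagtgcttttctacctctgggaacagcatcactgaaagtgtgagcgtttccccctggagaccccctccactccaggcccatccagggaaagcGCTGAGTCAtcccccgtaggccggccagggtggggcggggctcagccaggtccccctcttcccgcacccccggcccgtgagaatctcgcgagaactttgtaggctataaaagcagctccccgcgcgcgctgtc

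Counted from the start site at 0, the capitals in the Srxn1 promoter are TGAGTCGGC on the opposite strand from -158 to -150 and TGAGTCAGC on the coding strand from -45 to -37. The Srxn1 match to TGACNNNGC, TGACCTAGC on the opposite strand, starts 28 bases after the start site and so lies outside the 250 bases shown. Txnrd1 holds TGACAAAGC from -92 to -84, Mgst1 TGACCGTGC from -56 to -48 and Prdx1 TGACTCAGC from -133 to -125, all on the opposite strand. The matches at -45 in Srxn1 and in the printed stretch of Prdx1 overlap the AP-1 motif TGACTCA or its other-strand form TGAGTCA. A match says only that the letters are there.

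Glutathione supply moved in the same direction, higher in Exp-156b, at 4 of its 5 genes, beside 20.0% of all tested genes. Slc7a11, the cystine importer, was at 14.0 and 14.8 CPM in the Exp-156b Tg-ACE libraries, 13.1 and 19.9 CPM in the Exp-156b WT libraries, 5.45 CPM in the Exp-156 Tg-ACE library and 7.69 CPM in the Exp-156 WT library. The lowest Exp-156b library was above both Exp-156 libraries, and the mean ratio was 2.35 (log2 fold change 1.25, SE 0.19, edgeR adjusted p = 0.00168). Gclc averaged 45.9 ± 3.81 CPM in Exp-156b and 26.1 ± 0.20 CPM in Exp-156, 1.76-fold higher. Its partner Gclm averaged 70.6 ± 2.58 CPM in Exp-156b and 53.1 ± 0.75 CPM in Exp-156, 1.33-fold higher. The expected counts of Gclm and Slc7a11 were non-whole in all 6 libraries. Gss, glutathione synthetase, was 1.22-fold higher in Exp-156b (edgeR adjusted p = 0.0338), a call that was lost with the replicate number as a block (adjusted p = 0.0581), in DESeq2 (adjusted p = 0.0688) and when any library was left out. Gss overlaps Acss2 and 2 antisense genes on the opposite strand, and whether the counting used strand was not given in the sources used here.

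Gsr, glutathione reductase, which returns oxidised glutathione to its reduced form, behaved unlike the other 4. Its level in Exp-156b was 112 and 105 CPM in Tg-ACE and 102 and 100.1 CPM in WT. In Exp-156 it was 80.8 CPM in Tg-ACE and 134 CPM in WT, so that the Exp-156 libraries lay on either side of all 4 Exp-156b libraries. The mean levels were 105 ± 5.13 CPM in Exp-156b and 107 ± 37.7 CPM in Exp-156. Within Exp-156b the log2 ratio of Tg-ACE to WT was 0.10, and within Exp-156, with 1 library a genotype, it was -0.73. The test of that difference gave 0.83 (SE 0.12) with an unadjusted edgeR p of 3.9e-04 and an adjusted p of 0.647 over all genes, of which 0 (0%) passed. DESeq2 put the Gsr difference at 0.85 with an adjusted p of 0.00998, and over all alternatives the adjusted p ranged from there to 0.702. Gsr was higher in Exp-156b without WT replicate 1 (0.42, edgeR adjusted p = 0.0178) and lower in Exp-156b without Tg-ACE replicate 1 (-0.41, edgeR adjusted p = 0.0175), so the direction of the code difference rests on a library of each genotype.

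**Figure D3:**
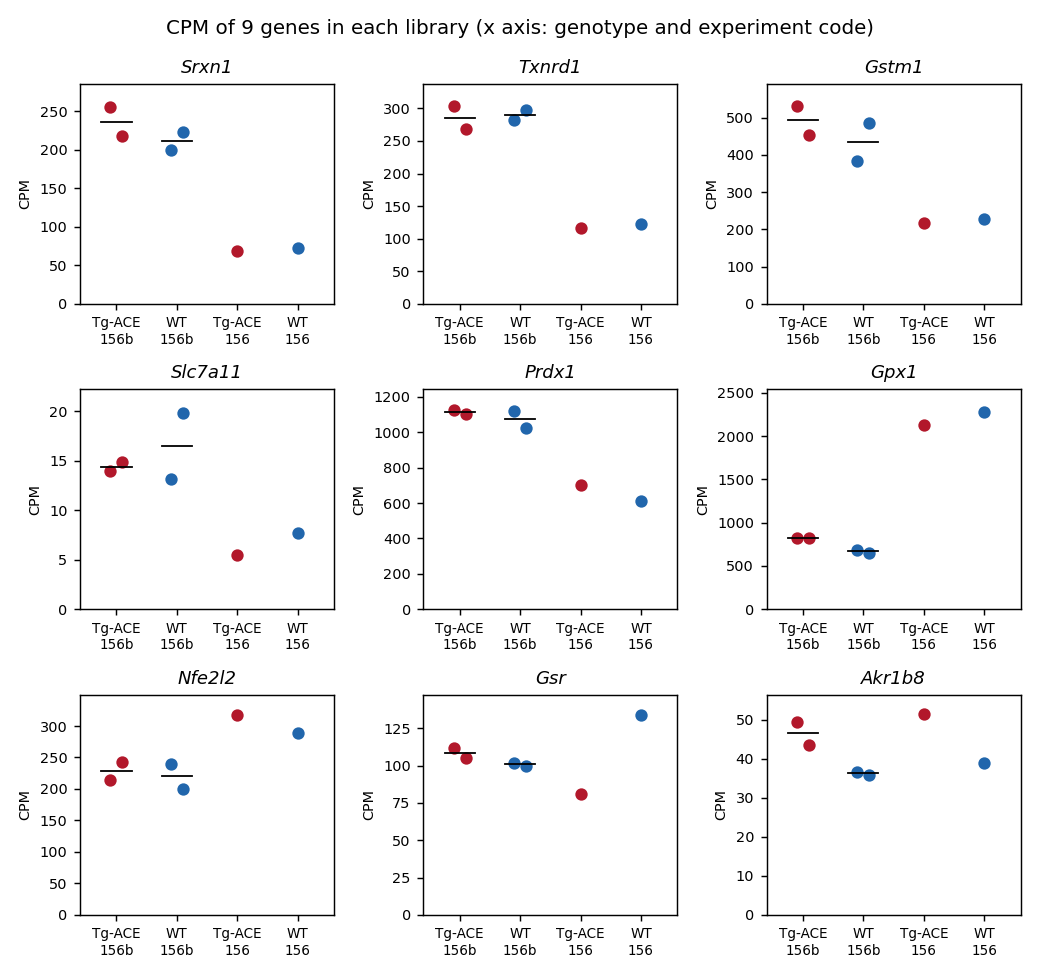
CPM (y axes, from 0) of 9 of the genes in each library, by genotype and experiment code along the x axes; points are libraries and bars are the means of 2 libraries. Srxn1, Txnrd1, Gstm1, Slc7a11 and Prdx1 are high in Exp-156b and Gpx1 and Nfe2l2 in Exp-156, the 2 Exp-156 libraries lie on either side of the rest for Gsr, and Akr1b8 is above WT in Tg-ACE under both codes.

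Across the 33 genes, the Tg-ACE to WT log2 ratio was above 0 for 25 and below 0 for 8 within Exp-156b (median 0.09), and above 0 for 8 and below 0 for 25 within Exp-156 (median -0.08). The median over all tested genes was -0.01 within either code. No gene passed the test of the difference, which had 981 genes (7.65%) and 6 of the 33 at an unadjusted edgeR p under 0.05. These 33 values share their libraries, and Exp-156 has 1 library a genotype.

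Peroxiredoxins, which reduce hydrogen peroxide with thioredoxin or glutathione, were divided. Prdx1 reached 1126 and 1105 CPM in the Exp-156b Tg-ACE libraries and 1121 and 1025 CPM in the Exp-156b WT libraries, against 704 CPM in the Exp-156 Tg-ACE library and 611 CPM in the Exp-156 WT library. Every Exp-156b library exceeded both Exp-156 libraries, and the mean was 1.66-fold higher (log2 fold change 0.74, SE 0.08, edgeR adjusted p = 3.9e-04). Prdx6, the peroxiredoxin that uses glutathione, fell to 56.4 ± 4.20 CPM in Exp-156b, against 75.1 ± 4.20 CPM in Exp-156 (log2 fold change -0.41, edgeR adjusted p = 0.00629). Without WT replicate 1 the Prdx6 call was lost (-0.37, adjusted p = 0.0656). Prdx2 and Prdx5, which is found in mitochondria and peroxisomes, had log2 differences of -0.13 each, and the mitochondrial Prdx3 of 0.07; none of the 3 passed.

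The sharpest fall among the 33 genes was in Gpx1. It was at 818 and 822 CPM in the Exp-156b Tg-ACE libraries and 685 and 652 CPM in the Exp-156b WT libraries, against 2124 CPM in the Exp-156 Tg-ACE library and 2273 CPM in the Exp-156 WT library. All Exp-156b libraries lay below both Exp-156 libraries, whose mean was 2.96 times theirs. The log2 fold change was -1.57 (SE 0.10, edgeR adjusted p = 3.5e-05) and kept its sign and its call in every alternative run. Gpx1 is a selenoprotein gene on chromosome 9 from 108338903 to 108340343 on the plus strand (GRCm38). The other glutathione peroxidase of the set, Gpx4, which reduces lipid hydroperoxides, did not pass: it was at 258 to 321 CPM in Exp-156b and at 245 and 269 CPM in Exp-156 (log2 fold change 0.13, edgeR adjusted p = 0.318; 0.33 and 0.0452 without WT replicate 1). Sod2, mitochondrial superoxide dismutase, was 1.27-fold higher in Exp-156b (log2 fold change 0.34, edgeR adjusted p = 0.00696), a call lost without Tg-ACE replicate 1 (adjusted p = 0.0526). Catalase (Cat) and the cytosolic dismutase gene Sod1 had differences of 0.13 and 0.04 and did not pass.

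Conjugation and export rose at 4 of the 5 tested genes, beside 20.0% of all tested genes. Gstm1 reached 531 and 453 CPM in the Exp-156b Tg-ACE libraries and 384 and 485 CPM in the Exp-156b WT libraries, against 216 CPM in the Exp-156 Tg-ACE library and 228 CPM in the Exp-156 WT library. The codes did not overlap, and the mean was 2.09-fold higher in Exp-156b (log2 fold change 1.06, SE 0.13, edgeR adjusted p = 5.7e-04). Mgst1, a membrane-bound glutathione transferase, averaged 185 ± 5.23 CPM in Exp-156b and 94.7 ± 11.9 CPM in Exp-156, 1.95-fold higher. Gsto1, an omega-class transferase, was 1.66-fold higher in Exp-156b, and Abcc1, an exporter of glutathione conjugates, 1.34-fold higher. Gstp1, the pi-class transferase, did not pass (log2 fold change 0.01, SE 0.16), and its expected counts were non-whole in all 6 libraries. Those of Gstm1 were non-whole in 4 libraries and those of Abcc1 in 2.

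The NADPH supply genes G6pdx, Pgd and Taldo1 belong to the pentose phosphate pathway. G6pdx, on the X chromosome, was at 206 and 199 CPM in the Exp-156b Tg-ACE libraries, 181 and 189 CPM in the Exp-156b WT libraries, 139 CPM in the Exp-156 Tg-ACE library and 151 CPM in the Exp-156 WT library, a mean ratio of 1.34. Pgd was also 1.34-fold higher in Exp-156b and Taldo1 1.57-fold higher, and no Exp-156b library of either reached down to the Exp-156 libraries. The calls of G6pdx and Pgd were lost without Tg-ACE replicate 1 (edgeR adjusted p = 0.0521 and 0.0568), and within the WT libraries alone Taldo1 also missed it (0.44, edgeR adjusted p = 0.0528). Transketolase (Tkt) did not pass, with a log2 fold change of 0.14. Me1, the cytosolic malic enzyme, had the largest ratio of all 33 genes on few counts: 62 and 95 in the Exp-156b Tg-ACE libraries and 91 and 84 in the Exp-156b WT libraries, against 22 in the Exp-156 Tg-ACE library and 12 in the Exp-156 WT library. The Me1 counts did not overlap, and the level was 3.24 ± 0.59 CPM in Exp-156b and 0.63 ± 0.20 CPM in Exp-156, 5.12-fold higher (log2 fold change 2.34, SE 0.32, edgeR adjusted p = 0.00116).

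Nqo1 was also counted sparsely, with 45 and 43 counts in the Exp-156b Tg-ACE libraries, 47 and 57 in the Exp-156b WT libraries, 18 in the Exp-156 Tg-ACE library and 30 in the Exp-156 WT library. The codes did not overlap, and the mean was 2.01-fold higher in Exp-156b (log2 fold change 1.04, SE 0.31, edgeR adjusted p = 0.0287). The call was lost without WT replicate 3 and without any 1 of the Tg-ACE libraries (adjusted p 0.0527 to 0.239), and without Tg-ACE replicate 1 the log2 fold change was 0.67. Akr1b8, the other carbonyl-reducing gene, had a code difference of -0.13 and did not pass.

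The transcript of NRF2 itself moved the other way. Nfe2l2 was at 215 and 243 CPM in the Exp-156b Tg-ACE libraries and 239 and 201 CPM in the Exp-156b WT libraries, against 318 CPM in the Exp-156 Tg-ACE library and 289 CPM in the Exp-156 WT library. All Exp-156b libraries were below both Exp-156 libraries, with a log2 fold change of -0.43 (SE 0.09, edgeR adjusted p = 0.00728), lost without Tg-ACE replicate 1 (-0.39, adjusted p = 0.0771). Keap1 had a difference of 0.14 (SE 0.09) and did not pass. NRF2 is controlled mainly through its protein, which RNA counts do not measure.

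Of 94 other genes of the same pathways, 83 were tested. Between genotypes 0 passed in either direction in edgeR, 9 had an unadjusted p under 0.05, beside 6.48% of all tested genes, and the median log2 fold change was 0.04. The genes named here had the smallest p in each direction. Above 0 they were Gpx3, the secreted glutathione peroxidase (0.38), and Prdx4, the peroxiredoxin of the endoplasmic reticulum (0.22). Below 0 they were Lrp8 (-0.65), a receptor for selenoprotein P, and Mafg (-0.14), a small MAF partner of NRF2. Lrp8 was the only gene of the 9 below 0, and Mafg was not among the 9. Between codes 33 of the 83 were higher in Exp-156b, 9 were lower and 41 did not pass, beside 20.0% higher and 23.0% lower over all tested genes, with a median log2 fold change of 0.14. Fth1, the heavy chain of the iron store ferritin, averaged 16484 ± 1031 CPM in Exp-156b and 5669 ± 231 CPM in Exp-156, 2.91-fold higher (edgeR adjusted p = 4.2e-05). Also higher in Exp-156b were Esd, which splits S-formylglutathione (log2 fold change 1.05), Sephs2, which makes the selenium donor for selenocysteine (0.99), and Sqstm1, encoding the autophagy adaptor p62 that binds KEAP1 (0.91).

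The other genes that fell in Exp-156b with the smallest p were Sepp1, encoding the secreted selenium carrier selenoprotein P, Nqo2, a quinone reductase, Sesn1, encoding sestrin 1, and Rpia, a pentose phosphate isomerase. Sepp1 averaged 308 ± 36.2 CPM in Exp-156b and 920.2 ± 13.8 CPM in Exp-156 (SD, n = 4 and n = 2), a log2 fold change of -1.58 (edgeR adjusted p = 5.5e-05). The size of that fall is close to that of Gpx1, another selenoprotein gene. Nqo2 averaged 28.3 ± 2.64 CPM in Exp-156b and 53.2 ± 5.93 CPM in Exp-156, and its log2 fold change was -0.91. Sesn1 had a log2 fold change of -0.81 and Rpia of -0.44.

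Selenoproteins carry selenocysteine, and 4 of the 34 genes, Gpx1, Gpx4, Txnrd1 and Txnrd2, encode them. The whole family of 24 mouse selenoprotein genes was looked up after the Gpx1, Txnrd1 and Sepp1 values had been seen, so its counts are a description. Of the 20 tested, 7 were higher and 5 were lower in Exp-156b and 8 did not pass in edgeR, with a median log2 fold change of -0.00; over all tested genes 20.0% were higher and 23.0% lower. Dio2, the deiodinase that activates thyroid hormone, averaged 287 ± 49.4 CPM in Exp-156b and 59.3 ± 19.2 CPM in Exp-156 (log2 fold change 2.30). Sepw1, a small thioredoxin-fold selenoprotein, fell to 39.7 ± 3.83 CPM in Exp-156b, against 97.9 ± 4.80 CPM in Exp-156 (log2 fold change -1.31). The methionine sulfoxide reductase gene Msrb1 was higher by 0.70 and the thioredoxin reductase gene Txnrd3 by 0.92. Sephs2 and Txnrd1, given above, also stood on the higher side. Dio1, Dio3 and BC089491 had no counts in any library, and between genotypes 0 of the 20 passed.

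**Figure D4:**
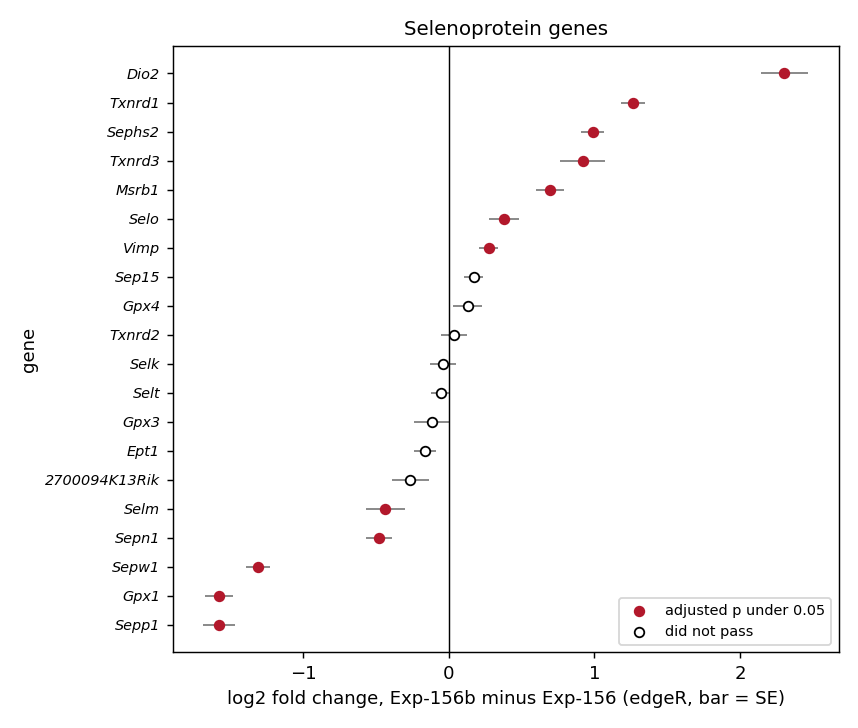
Log2 fold changes of the 20 tested selenoprotein genes between Exp-156b and Exp-156 (x axis; bars are standard errors), sorted by size. Filled points passed an adjusted edgeR p of 0.05; 7 lie above 0, from Vimp (0.28) to Dio2 (2.30), and 5 below, from Selm (-0.43) to Sepp1 (-1.58).

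Markers of other cells were also compared between the codes. Over all tested genes 20.0% were higher and 23.0% lower in Exp-156b. In edgeR all 3 tested eosinophil markers were lower in Exp-156b (summed 11.4 to 21.5 CPM in Exp-156b and 160 to 391 CPM in Exp-156), as were all 6 tested markers of mast cells and basophils (14.1 to 28.8 CPM in Exp-156b, 61.9 to 96.2 CPM in Exp-156). For neutrophils 5 of 8 tested markers were lower, with a sum of 102 to 109 CPM in Exp-156b and 353 to 810 CPM in Exp-156. For T and NK cells 7 of 8 were lower (3.74 to 7.92 CPM in Exp-156b, 18.1 to 21.8 CPM in Exp-156), and for dendritic cells 2 of 3 (5.42 to 9.95 CPM in Exp-156b, 50.4 to 64.6 CPM in Exp-156). Of 8 markers of large resident peritoneal macrophages 5 were lower and 1 higher (35.8 to 53.3 CPM in Exp-156b, 231 to 355 CPM in Exp-156). Of 6 tested markers of monocytes and small peritoneal macrophages 4 were lower (126 to 215 CPM in Exp-156b, 426 to 427 CPM in Exp-156). Mesothelial and fibroblast markers went the other way, with 5 of 9 higher and 1 lower (277 to 575 CPM in Exp-156b, 224 to 242 CPM in Exp-156). For B cells 1 of 6 tested, with Ighm not analysed here, was higher and none lower (195 to 298 CPM in Exp-156b, 197 to 233 CPM in Exp-156). The B-cell count higher is near the share over all tested genes. Both tested markers of erythroid cells and platelets were lower in Exp-156b (13.9 to 34.5 CPM in Exp-156b, 69.5 to 101 CPM in Exp-156), with Slc4a1 at 0 in every library. Of 11 rows for macrophage core genes 7 were lower (18540 to 22476 CPM in Exp-156b, 22162 to 22308 CPM in Exp-156). The sums overlapped, but the median log2 fold change of these rows was -0.91, with 10 below 0 and 1 above. Of 8 immediate early genes 7 were lower (807 to 882 CPM in Exp-156b, 1672 to 1988 CPM in Exp-156). The part of these cells and states in the code differences of the glutathione, thioredoxin and NRF2 genes was not tested. Between genotypes no gene of these marker lists passed in either direction.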

How the data were processed

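Poly-A RNA of 3 Tg-ACE and 3 WT macrophage samples had been made into stranded libraries and read as single 75-base reads, per the labels' protocols. The authors deposited 1 table of expected counts per gene, with no normalization. The submitters' processing notes name STAR 2.5.0, RSEM 1.2.25, mm10 and GRCh38, with no role for each. Whether counting used strand was not given in the sources used here. In each library 11.0% to 11.4% of values were not whole, and all were rounded. The 92 spike-in rows, with 1 count in all, were left out, and 0 columns belonged to other samples. Each library held 15563 to 15885 genes with counts. A level of 3 counts corresponds to 0.107 to 0.123 CPM, which covers counting error only.

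Genotype came from the titles and the experiment code from the descriptions. The design text calls the second group Tg-NKO; the sample labels were followed. Expression was fitted in edgeR 4.0.16 (R 4.3.3) with TMM factors, filterByExpr (12827 genes kept), experiment code and genotype as terms, the quasi-likelihood test and Benjamini-Hochberg adjustment over all tested genes. A second fit added their product, to test whether the genotype difference varied with the code. SE was derived from the F statistic (log2 fold change over its square root). The fit was tested on simulated data. The biological coefficient of variation was 0.108 in this model and 0.310 with genotype alone.

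Same-numbered libraries deviated together from their group means (correlations over genes 0.877, 0.538 and 0.682), above the limit of 0.1 set for treating numbers as pairs. The main fit held the code and no term for pairs, and the replicate block was run as an alternative. Differently numbered libraries within Exp-156b also deviated together (Tg-ACE 2 with WT 3 0.671, Tg-ACE 3 with WT 2 0.601). The shared deviation thus went with the code and not with the number. After removal of the code, pair 2 gave -0.202 and pair 3 -0.122, beside -0.0866 and -0.130 for the differently numbered libraries. The fit forces the remaining deviations to cancel out, so these negative values say nothing about pairs.

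The 34 genes, the lists and the tests were chosen with earlier results of these data known. Named genes were all 34 and, from the list of 94 others, up to 4 per comparison and direction with the smallest p among those that passed, or 2 where none passed. The selenoprotein list, the spelling TGAGNNNGC and leaving out libraries in the test of the product were chosen after the values had been seen. Alternatives were other scalings, other filters, DESeq2, limma-voom, a replicate block, each library left out and fits within 1 code or genotype. Promoter windows came from RefSeq (GRCm38.p6), and gene positions and exon lengths from GENCODE vM21. Of the 34 genes, 11 had non-whole values in at least 1 library. Gss, G6pdx, Gclm, Keap1, Me1, Prdx2, Prdx5 and Txnrd2 overlap genes on the opposite strand. Gclm also overlaps Gm6061 on the same strand, as Tkt does Mir3076. The levels of all these genes are less certain.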

Additional observations from a re-analysis of the deposited data

Results flagged for a closer look

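Sod1 in Tg-ACE replicate 3 stood apart from the other Exp-156b libraries: it was at 132 CPM there, against 111 to 114 CPM in the other 3. The gap to the nearest library was 0.880 of the whole range of the 4 values, above the critical value of Dixon's test for 4 samples. It was the only 1 of the 33 tested genes set apart in this way, and chance does so in about 1 of 20 groups. The other genes of superoxide and peroxide removal in that library were not set apart. The cause was not tested.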

How the results depend on the processing

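Of the 21 genes called between codes, 21 kept their sign in every alternative that tested them and 13 their call, 12 higher and 1 lower. Leaving out a library gave 1442 to 2383 genes higher and 1962 to 2888 lower in Exp-156b (fewest higher without Tg-ACE replicate 1, fewest lower without WT replicate 1). The Tg-ACE libraries alone gave 1350 higher and 1666 lower, the WT libraries alone 1415 and 1802. Upper-quartile scaling gave 3333 higher and 2408 lower, against 2559 and 2945. Gsr, whose code difference in the main fit was -0.01 and did not pass, had no stable direction. It was 0.42 without WT replicate 1 (range -0.41 to 0.42 over the libraries left out) and 0.44 in the Tg-ACE libraries alone. The filter of 5 CPM left out Me1 and Nqo1. Between genotypes, no filter gave 2 genes higher and 7 lower, DESeq2 19 and 19, with 1 of the 33 genes higher (Akr1b8), and genotype alone 0 lower. Leaving out a library gave 0 to 1 genes higher. Of the 33 genes, 22 changed the sign of their genotype difference in at least 1 alternative. For the difference between codes in the genotype effect, DESeq2 called 13 genes and 1 of the 33 (Gsr), and leaving out a library 0 to 14 (14 without WT replicate 3). The replicate block, which pairs same-numbered libraries, gave 0 of the 33 genes and 2 lower genes between genotypes and 17 higher and 3 lower of the 33 between codes; it changed no call of the 33 besides that of Gss. The cause of these changes was not tested. The 2 libraries of Exp-156 limit every comparison of codes, and genes with few counts, such as Me1 and Nqo1, have the widest errors.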
